A study of Glycine max with 4 samples.

Results

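The vegetative bud of the soybean isoline Clark standard was compared with the shoot tip of the same line, across all genes of the deposited tables. The members were 39343 genes of 69145, those with at least 1 RPKM in either library, each gene represented by its transcript model with the highest mean over the 4 libraries of the series. RPKM is a number of reads divided by the length of the model and by the total of the library, so it gives a level per length. Clark standard is the wild type of the study, and the second line, Clark five-foliate, is a leaf mutant of the same cultivar. Both tissues came from several greenhouse plants of each line at 4 weeks of age under optimal conditions, and the labels name no other treatment. Each of the 4 groups, standard shoot tip, five-foliate shoot tip, standard bud and five-foliate bud, was 1 library, so 2 of the 4 libraries made the comparison and no gene could be tested against the spread between plants.

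A shoot tip carries the apical meristem, a group of dividing cells that forms leaves and stem, together with the youngest leaves around it. A vegetative bud is a short, undeveloped shoot with its own meristem and leaf primordia, which forms leaves and not flowers. Both are mixtures of meristem, young leaf and stem cells, and in such bulk tissue fewer cells of a type and less RNA per cell cannot be told apart. The identifiers in the files carry no names, and 0 of them matched the 59048 genes of the reference table. Genes are therefore described by chromosome, level and neighbourhood, no pathway could be followed, and the tissue labels were not checked against marker genes. Only 2 identifiers per direction are printed.

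The totals behind the RPKM values, recovered from the values themselves, were 152791817 alignments in the standard shoot tip and 97532923 in the standard bud. A model of 1 kb with 3 reads had 0.0196 RPKM in the shoot tip and 0.0308 RPKM in the bud. The five-foliate libraries, given beside the standard ones below, had 139769051 alignments in the shoot tip and 103618555 in the bud. Of the 39343 genes, 31566 were at 1 RPKM or more in both standard libraries, 5912 (15.0%) only in the bud and 1865 (4.74%) only in the shoot tip. The highest gene outside the filter had 0.999968 RPKM in its higher library, and the lowest gene inside had 1.00029 RPKM. A further 9098 genes had no read in either standard library.

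As deposited, levels were mostly somewhat higher in the bud, while genes at 500 RPKM or more in either tissue were mostly lower there. The ratio used was log2((bud RPKM + 1)/(shoot tip RPKM + 1)), a scale that understates the change of low genes. Its median over the 39343 genes was 0.47 as deposited, a 1.38-fold higher value of RPKM + 1 in the bud, and 74.0% of the genes lay above 0. The middle 50% of genes, from the 25 to the 75 percentile, ran from -0.03 to 0.89, and the outer percentiles of 5 and 95 were -1.55 and 1.85. At least a 2-fold difference was shown by 8144 genes higher in the bud (20.7% of those compared) and 3539 genes lower in the bud (9.00%), which together were 29.7%. Of these, 2800 higher genes passed the filter only through the bud and 849 lower genes only through the tip, and 5344 higher and 2690 lower genes were at 1 RPKM or more in both.

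The direction of that split depended on the scale. With every ratio centred on the median, 3586 genes (9.11%) were higher and 5747 (14.6%) were lower in the bud. The higher genes made up 69.7% of the 2-fold list as deposited, 38.4% with centred ratios, 50.1% with upper-quartile scaling and 58.4% with 5 in place of 1 added to the values. All 3539 genes lower as deposited were also lower with centred ratios, and 3586 of the 8144 higher genes were also higher, because centring moved every ratio by the same amount. As deposited the directions were more even among large differences, with 400 genes higher and 297 lower at 8-fold and 110 on each side at 16-fold. With centred ratios they were less even there, with 218 higher and 566 lower at 8-fold and 57 higher and 169 lower at 16-fold. At 32-fold, 32 genes were higher and 24 lower as deposited, against 20 higher and 62 lower with centred ratios.

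**Figure D1:**
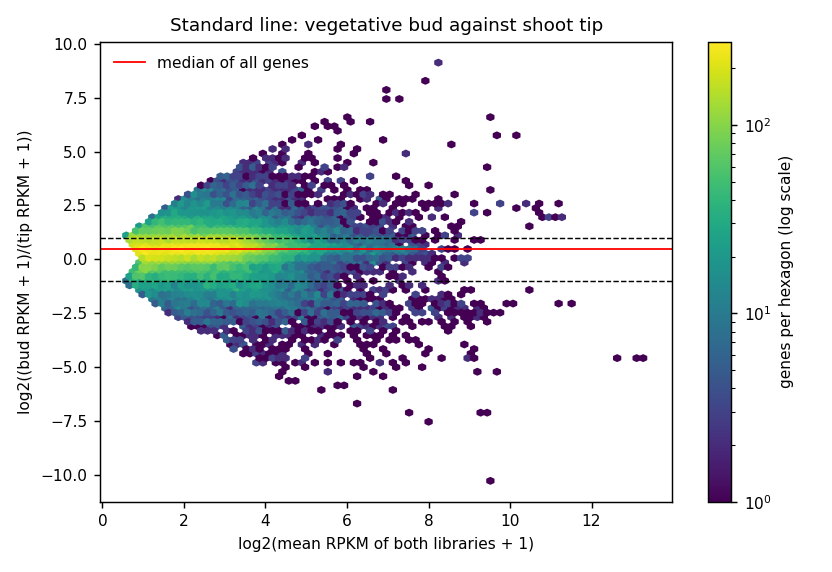
Each hexagon holds genes of the standard line by mean level (x axis, log2(mean RPKM + 1)) and ratio of bud to shoot tip (y axis, log2 of RPKM + 1), coloured by the number of genes on a log scale. The dashed lines mark 2-fold and the red line marks the median of 0.47. Genes of high mean level lie on both sides of 0. The 10 most abundant genes of the standard tip had a median log2 ratio of -3.37, and the 10 most abundant of the standard bud had 2.0.

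The genes were next divided by their level in the higher of the 2 standard libraries. Between 1 and 2 RPKM, 9.0% of 5999 genes were at least 2-fold higher in the bud and 2.6% were lower. Between 10 and 20 RPKM the shares were 24.8% and 11.2% of 7077 genes. Between 50 and 100 RPKM they were 31.2% and 26.7% of 1123 genes, so both shares were larger than in the lowest class. From 100 to 500 RPKM the order turned, with 24.4% of 857 genes higher and 29.5% lower. Of the 124 genes at 500 RPKM or more, 45 were higher and 76 (61.3%) were lower in the bud, and their median log2 ratio was -2.06.

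The most abundant class kept this order on the centred scale, with 33.9% higher and 61.3% lower, and its median was -2.53. In the classes under 100 RPKM centring changed which direction was more frequent, for example to 12% higher and 16.6% lower between 10 and 20 RPKM. Adding 1 to both values shrinks the ratios of the lowest class most. In the five-foliate line the same 124 genes had a median log2 ratio of -1.21, also below 0, and the class from 1 to 2 RPKM had a median of 0.15.

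**Figure D2:**
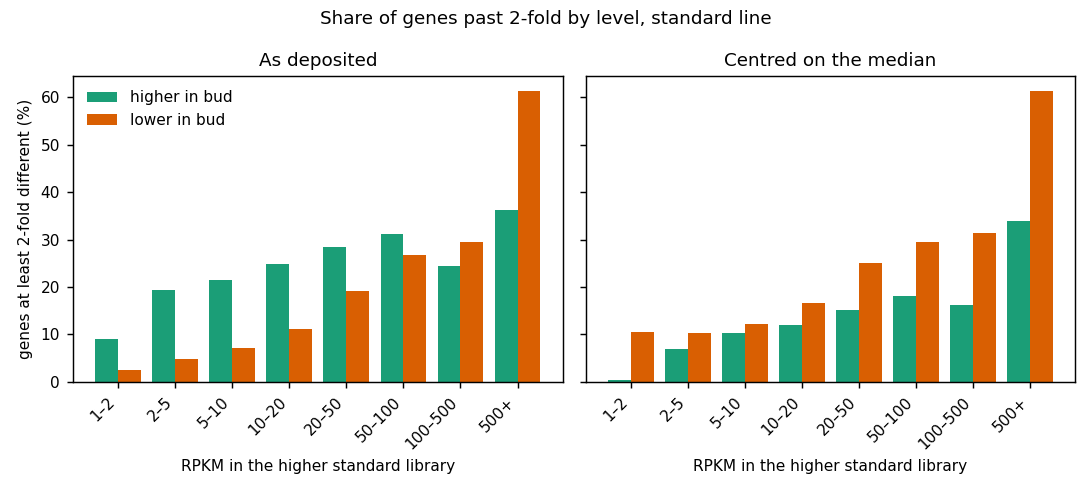
Bars give the percentage of genes at least 2-fold higher (green) or lower (orange) in the standard bud, by RPKM in the higher standard library, as deposited and centred on the median. In the class of 500 RPKM and above, 61.3% of genes were lower on both scales, and in the classes under 100 RPKM the direction with more genes differs between the panels.

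Genes of the bud that were nearly silent in the shoot tip headed the list of higher genes. Glyma10g04930 on chromosome 10 had 0.136 RPKM in the standard tip and 0.373 RPKM in the five-foliate tip, against 637 and 676 RPKM in the buds of these lines. Both buds were high and both tips were near 0. The standard bud was 4669.9-fold above the standard shoot tip (95% exact binomial interval 2145.1 to 12727, from 17886 and 6 reads). This interval and those below compare libraries and cover counting error only.

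Glyma10g04940, the next identifier on the same chromosome, had 0.129 RPKM in the standard tip and 0.353 RPKM in the five-foliate tip, against 612 and 654 RPKM in the buds of these lines. Its standard bud level was 4738.3-fold higher (interval 2176.5 to 12913). Both genes had the same read numbers in the shoot tips, 6 in the standard and 15 in the five-foliate library, and 17886 and 18148 reads in the standard bud. Whether the same reads were counted for both was not tested, so the 2 values may not be separate measurements.

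A gene on chromosome 13 came next, with 0.545 RPKM in the standard tip and 1.68 RPKM in the five-foliate tip, against 498 and 538 RPKM in the buds of these lines. The fourth, on chromosome 20, had 0.126, 0.403, 244 and 233 RPKM in the same order of libraries. The most abundant of the 12 highest ratios was a gene on chromosome 9, at 15.4 RPKM in the standard tip and 127 RPKM in the five-foliate tip, against 1520 and 1461 RPKM in the buds of these lines. In all 12 genes both bud libraries lay above both tip libraries.

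The 12 genes lay on 8 chromosomes and each had a single model. Their median level was 0.359 RPKM in the standard tip and 2.31 RPKM in the five-foliate tip, against 244.7 and 244.3 RPKM in the buds of these lines. The five-foliate tip lay above the standard tip in 11 of the 12. It did so in 90.8% of all 8144 higher genes and in 77.1% of the 27660 genes not past 2-fold. Their log2 ratios ran from 6.23 to 9.13 in the standard line and from 3.51 to 8.95 in the five-foliate line. Together they held 0.846% of the RPKM sum of the standard bud and 0.00378% of that of the standard shoot tip.

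Genes of the shoot tip with little signal in the bud headed the other list. Glyma15g06270 on chromosome 15 had 1484 RPKM in the standard tip and 8.27 RPKM in the five-foliate tip, against 0.190 and 0.322 RPKM in the buds of these lines. The standard shoot tip stood far above the other libraries, the five-foliate tip included. The standard tip level was 7818.2-fold that of the standard bud (interval 3350 to 24079, from 61239 and 5 reads).

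Glyma16g00980 on chromosome 16 had 509 RPKM in the standard tip and 76.6 RPKM in the five-foliate tip, against 1.70 and 0.816 RPKM in the buds of these lines. Both tips were above both buds, and the standard tip level was 299.3-fold that of the standard bud (interval 255.7 to 352.7). A gene on chromosome 7 followed the same order, with 358, 39.3, 1.58 and 0.828 RPKM.

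The next places were taken by a gene on chromosome 19 with 1286, 40.8, 8.62 and 6.11 RPKM and a gene on chromosome 5 with 1389, 37.8, 9.55 and 6.78 RPKM, in the order standard tip, five-foliate tip, standard bud and five-foliate bud. Their levels were close in every library, and whether they are copies that share reads was not examined, since no sequence was at hand. A gene on chromosome 14 was the exception to the gap between the tips, with 148 RPKM in the standard tip and 97.9 RPKM in the five-foliate tip, against 0.540 and 0.263 RPKM in the buds.

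The 12 lowest ratios ran from -10.29 to -5.58 on the log2 scale, on 10 chromosomes. These 12 had a median of 210.0 RPKM in the standard tip and 23.7 RPKM in the five-foliate tip, against 1.05 and 0.643 RPKM in the buds of these lines. In 11 of the 12 the five-foliate tip was below 50% of the standard tip. Over all 3539 lower genes the tips were within 2-fold of each other in 54.8%. The five-foliate tip lay above the standard tip in 9.72% of these and in 77.1% of the 27660 genes not past 2-fold. Choosing the 12 by a high standard tip favours a lower five-foliate tip. The tissue ratio of the five-foliate line was in the same direction in all 12, from -6.29 to -0.74 with a median of -2.97, and past 2-fold in 11. They held 1.11% of the RPKM sum of the standard shoot tip and 0.00496% of that of the standard bud.

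**Figure D3:**
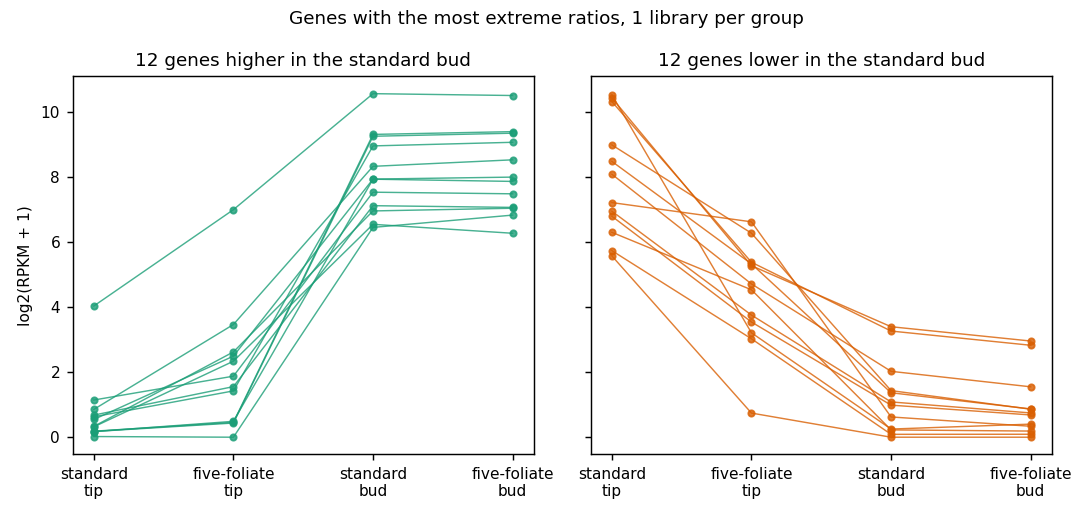
Lines join the levels of 1 gene, as log2(RPKM + 1), in the 4 libraries for the 12 highest (left) and 12 lowest (right) ratios of standard bud to standard tip among genes at 5 RPKM or more in the higher of these libraries. The buds of the 2 lines lie close together, with medians of 244.7 and 244.3 RPKM on the left, and the five-foliate tip falls between the standard tip and the buds in 11 of the 12 genes on the left. Over all 8144 higher genes it lay between the standard tip and the bud in 86.4%.

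Most of the 100 most abundant genes differed between the tissues of the standard line, while most of the 1000 most abundant were shared. No gene was among the 10 most abundant of both standard libraries, and 24 of the 100 most abundant and 595 of the 1000 most abundant were shared. In the five-foliate line the corresponding numbers were 7 of 10, 54 of 100 and 718 of 1000. The 2 buds shared 93 of their 100 most abundant genes and the 2 tips shared 50.

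A pair of genes on chromosome 19 and a gene on chromosome 13 led the standard shoot tip. The first had 19969.2 RPKM in the standard tip and 5297.3 RPKM in the five-foliate tip, against 847.5 and 714.8 RPKM in the buds of these lines. The second had 17197.5 and 4572 RPKM in the tips and 730.3 and 615.6 RPKM in the buds, and the third had 11948 and 2822 RPKM in the tips and 475.8 and 402.2 RPKM in the buds. Both tips were above both buds in all 3. The standard tip was 23.6-fold, 23.5-fold and 25.1-fold above the standard bud, with 2617871 and 2603992 reads for the pair in the standard tip. Whether these genes share reads was not tested, and their values may be uncertain for that reason.

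The top 10 genes of the standard tip were all at least 2-fold lower in the standard bud, with a median log2 ratio of -3.37. They held 12.5% of the RPKM sum in the standard tip, 3.66% in the five-foliate tip, and 1.0% and 0.967% in the buds of these lines. Of the 100 most abundant genes of the standard tip, 84 were lower and 12 higher in the bud past 2-fold. Of the 100 most abundant of the standard bud, 70 were higher and 8 lower there, so the direction depended on the library that defined abundance. The 10 most abundant genes of the standard bud were all higher there, with a median log2 ratio of 2.0, and all lay on chromosome 13. They held 5.99% of the RPKM sum of the standard bud and 9.28% of the five-foliate one, against 1.48% and 5.64% in the tips. The genes ranked 3 and 5 among these 10 had identical reads in all 4 libraries. Both had 84268 reads in the standard tip and 214857 in the standard bud. Whether the same reads were counted for several of the 10 was not tested, so these shares may count reads repeatedly. A gene picked as abundant in a library tends to be lower elsewhere, so these directions follow in part from the choice.

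**Figure D4:**
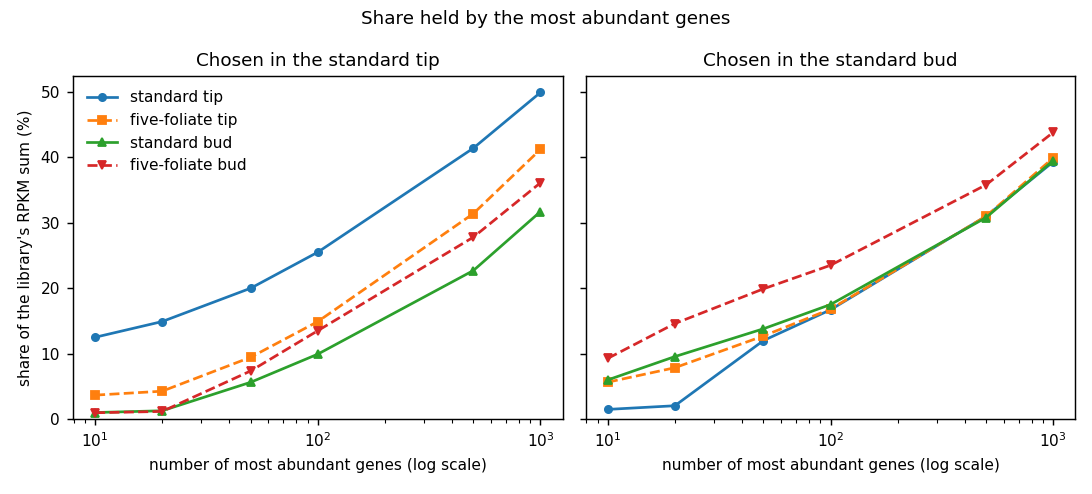
The y axis gives the percentage of each library's RPKM sum held by the most abundant genes (x axis, number of genes on a log scale), chosen in the standard tip (left) or in the standard bud (right). The 10 genes chosen in the standard tip held 12.5% there and 1.0% in the standard bud, and the 10 chosen in the standard bud held 5.99% there and 1.48% in the standard tip.

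These abundant genes also enter the scale of all others, since RPKM divides by the library total. The recovered reads of all models, alternative models of a gene included, summed to between 96.28% and 98.09% of the totals, so reads of every model entered them. The second gene of chromosome 19 had 6 models, whose reads made up 9.18% of the alignments of the standard shoot tip, 2.46% of the five-foliate tip, 0.391% of the standard bud and 0.33% of the five-foliate bud. With the other 2 leading genes the share was 12.1% in the standard tip and 0.512% in the standard bud. Reads of the 1 model kept per gene were 65.5% of the total in the standard tip and 70.1% in the standard bud. With totals that leave out these 3 genes, the median log2 ratio was 0.33 in place of 0.47, and 6626 genes were higher and 4123 lower, 61.6% of them higher. This setting was chosen after the data were seen.

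Some genes had a clear level in 1 standard tissue and almost none in the other. At 5 RPKM or more in the bud and 0.1 RPKM or less in the shoot tip stood 96 genes, 21 of them with no read in the shoot tip. Their standard bud levels ran from 5.02 to 86.8 RPKM with a median of 7.43. In the five-foliate bud the same genes ran from 2.98 to 113 RPKM with a median of 6.82, so all of them were present there. In the five-foliate shoot tip their median was 0.155 RPKM and their highest value 2.59 RPKM, and 57 of the 96 were above 0.1 RPKM. The most abundant, on chromosome 13, had 2 reads (0.0146 RPKM) in the standard tip, no read in the five-foliate tip, and 86.8 and 113 RPKM in the buds of these lines, a standard ratio of 5960.8 (exact binomial interval 1649.5 to 49229).

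The opposite set held 33 genes, 11 of them with no read in the standard bud. Their standard shoot tip levels ran from 5.09 to 52.5 RPKM with a median of 10.2. In the other line the tip had a median of 0.556 RPKM, with 20 of the 33 below 1 RPKM, and the five-foliate bud had at most 0.49 RPKM. A gene on chromosome 11 had 52.5 RPKM in the standard tip and 7.16 RPKM in the five-foliate tip, against 0.0633 and 0.0650 RPKM in the buds of these lines. A gene on chromosome 10 had 39.97 RPKM in the standard tip, 0.477 RPKM in the five-foliate tip and no read in either bud. With its standard bud set to a floor of 3 reads, the standard tip was 1247.5-fold higher. The lower limit of its exact binomial interval was 1014.2-fold. By the same limits 31 of the 96 and 3 of the 33 genes met them in the five-foliate line as well. The share of all 39343 genes that met these limits in that line is not given here. Both sets use the deposited scale, on which more genes were higher in the bud, and centred values are not given for them. The difference between the sets was not tested.

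The five-foliate line gave a second tissue comparison with no library in common. Of the 8144 genes higher in the standard bud, 3036 (37.3%) were past 2-fold in the same direction in the five-foliate line, where 9.64% of all 39343 genes were. Of the 3539 lower genes 1859 (52.5%) were also lower, against 7.73% of all genes. Seen from the five-foliate line, these were 80.1% of its 3791 higher and 61.1% of its 3041 lower genes. With both lines centred, 58.6% of the 3586 higher and 43.2% of the 5747 lower genes were shared, against 8.46% and 8.66% of all genes. As deposited, signs were the same in 93.9% of the higher and 89.7% of the lower genes, against 63.2% of the 27660 genes not past 2-fold in the standard line.

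The ratios of the lines were correlated across genes, with a Pearson coefficient of 0.75 and a Spearman coefficient of 0.716 over the 39343 genes, which are not independent replicates and share their tables and processing. The SD over genes was 1.05 in the standard and 0.82 in the five-foliate line, and the medians were 0.47 and 0.07. The 8144 higher genes had median levels of 1.86 RPKM in the standard tip and 3.59 RPKM in the five-foliate tip, against 8.19 and 7.62 RPKM in the buds of these lines. The 3539 lower genes had medians of 14.5, 8.26, 3.39 and 3.32 RPKM in the same order. The buds lay close together and the five-foliate tip lay between the standard tip and the bud, in 86.4% of the higher and 81.6% of the lower genes. The buds were within 2-fold of each other for 99.1% and 92.4% of these genes, the tips for 54.4% and 54.8%. Among the 27660 genes not past 2-fold these shares were 98.6% for the buds and 86.1% for the tips, so closeness of the buds was not particular to the genes past 2-fold. In 46.3% of these 27660 genes the five-foliate tip lay between the standard tip and the bud. Genes chosen for a difference between the standard libraries favour such a middle value in a further library, and with 1 library per group this order was not tested.

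**Figure D5:**
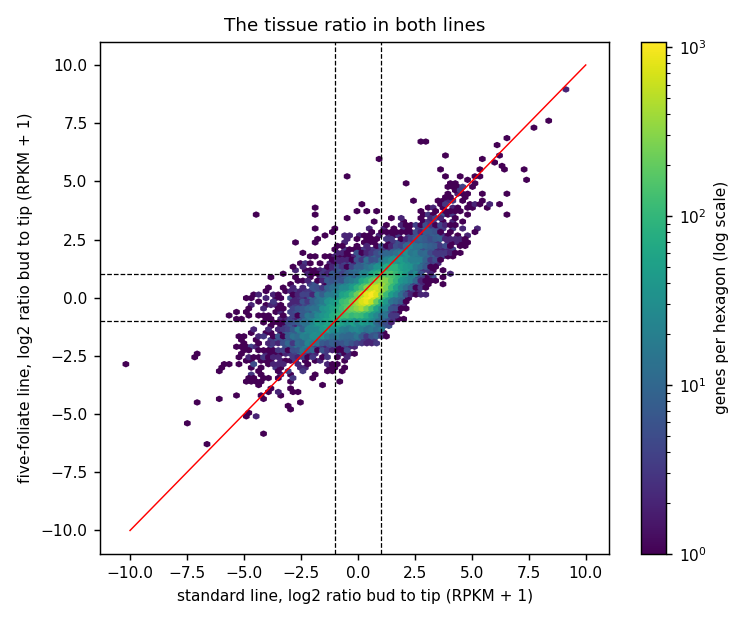
Each hexagon holds genes by their log2 ratio of bud to shoot tip in the standard line (x axis) and in the five-foliate line (y axis), coloured by the number of genes on a log scale. Dashed lines mark 2-fold and the red line marks equal ratios. The Pearson correlation was 0.75, and the medians were 0.47 in the standard and 0.07 in the five-foliate line. The 12 lowest ratios of the standard line all lie above the red line, which choosing them by their x value favours.

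Every chromosome contributed genes to both lists. The share of genes higher in the bud ran from 19.0% on chromosomes 10 and 18 to 22.5% on chromosome 7, and the share lower from 7.07% on chromosome 14 to 11% on chromosome 12. Median log2 ratios of the 20 chromosomes lay between 0.43 and 0.49. In gene order, after a gene higher in the bud the next gene was also higher in 26.3% of cases, against 20.7% over all neighbouring pairs. After a lower gene the next was also lower in 13.6%, against 9.02%. With centred ratios the shares were 15.1% against 9.12% and 19.9% against 14.6%. Whether neighbours share reads was not tested in general. Reads identical to those of another gene in all 4 libraries were found in 69 of 37738 genes with at least 100 reads.

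The longest run of neighbours higher in the bud held 30 genes on chromosome 13, and it included 9 of the 10 most abundant genes of the standard bud. Levels in this run had a median of 240.7 RPKM in the standard tip and 1097.2 RPKM in the five-foliate tip, against 1333.4 and 2315.9 RPKM in the buds of these lines. The standard tip was the low library. The run held 2.14% of the RPKM sum of the standard tip, 8.02% of the five-foliate tip, 8.74% of the standard bud and 14.2% of the five-foliate bud. All 30 log2 ratios lay between 1.17 and 3.2, 25 of them past 2-fold after centring, and 5 of the 30 had reads identical to another gene of the run in all 4 libraries. Reads could also be close without being identical. Among the 10 most abundant bud genes, the gene ranked 4 had 84196 reads in the standard tip and 214722 in the standard bud. The genes ranked 3 and 5, identical to each other in all 4 libraries, had 84268 and 214857 reads. Whether the same reads were counted for several genes was not tested, so the shares of the RPKM sum may count reads repeatedly. In the five-foliate line 14 of the 30 were past 2-fold.

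The other runs had 10 genes or fewer, and a run of 9 on chromosome 13 had a median of 246.0 RPKM in the standard tip and 555 RPKM in the standard bud. The 124 runs of 4 or more neighbours higher in the bud held 601 genes, and 10 such runs of lower genes held 43. With centred ratios the balance turned, to 21 runs with 100 higher genes and 41 runs with 197 lower genes. Runs are more frequent where a larger share of genes is past 2-fold. That share was 20.7% higher and 9.00% lower as deposited, and 9.11% higher and 14.6% lower with centred ratios. Runs of 10 higher genes lay on chromosomes 6 and 15, with median levels of 0.455 and 0.856 RPKM in the standard tip and 2.46 and 3.69 RPKM in the standard bud. The longest runs of lower genes had 5 members, on chromosomes 8, 9 and 10. The run on chromosome 10 had a median of 21.4 RPKM in the standard tip and 20.5 RPKM in the five-foliate tip, against 4.87 and 4.20 RPKM in the buds of these lines, and both tips lay above both buds. With centred ratios the longest lower run had 18 genes on chromosome 6, at a median of 2.09 RPKM in the standard tip and 0.428 RPKM in the standard bud.

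Transcript models of a gene mostly had ratios in the same direction. Of the 39343 genes 6401 had several models, of which 1231 (19.2%) were higher and 585 (9.14%) lower in the bud by the kept model. These shares were close to the 21.0% and 8.97% of the 32942 genes with a single model. Every model was past 2-fold in the same direction in 1106 of the 1231 higher genes and 542 of the 585 lower genes, and in 0 of them was any model past 2-fold in the other direction. The model with the highest RPKM differed between shoot tip and bud in 487 genes, 7.61% of those with several models. Models of a gene can share reads, so their ratios are not separate measurements.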

How the data were processed

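RNA-seq of 4 libraries was analysed from the tables as deposited. The authors deposited RPKM values per gene model, 1 table for each tissue, and the aligner Bowtie appears in the submitters' processing notes. The sources used here give neither its version nor the genome build, the annotation or how multiply matching reads were handled. Shoot tip and bud stand in separate tables, and the headers of the shoot tip columns alone carry a further tag whose meaning is not given, so tissue and any difference in preparation cannot be told apart. Both tables listed the same 78773 models, and 708957 blank lines and 7 empty columns of the bud table were dropped.

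Library totals, model lengths and whole reads were recovered by finding the shortest whole length from 20 to 20000 at which all values of a model were whole reads within 0.0005 reads. This held for 99.9904% of 62593 models with 4 values above 0, and the step was tested on simulated data. Recovered reads or lengths entered the intervals, floors, totals, identical-read counts and length classes, and the counts of genes past 2-fold used the deposited values. Intervals are 95% exact binomial.

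Counts used log2 ratios with a pseudocount of 1, a filter of 1 RPKM and a 2-fold threshold, as deposited and centred on the median. With 1 library per group no test was made and no p-value was computed. The reported genes were the 12 highest and 12 lowest ratios at 5 RPKM or more and the 10 most abundant of each standard library, and 2 identifiers per direction are printed. The 16 planned gene lists select by name and could not be applied. The members and lists were chosen with earlier results of these data known. Gene sets by on and off level, neighbour runs and models were chosen after the data were seen. Calculations ran in Python 3.11.15 with SciPy 1.17.1, pandas 2.3.3 and numpy 2.4.6, and plots in matplotlib 3.10.9.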

Additional observations from a re-analysis of the deposited data

Results flagged for a closer look

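The tissue difference had opposite signs in the lines for 2 groups of genes, each past 2-fold in both. A gene chosen in this way must differ at least 2-fold between the lines in the tip, the bud or both. The counts of such differences given below therefore follow in part from the choice. With 1 library per group neither difference was tested.

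In 56 genes the bud was lower in the standard line and higher in the five-foliate line, with median log2 ratios of -1.66 and 1.34. Their median levels were 6.77 RPKM in the standard tip and 0.775 RPKM in the five-foliate tip, against 1.44 and 5.18 RPKM in the buds of these lines. The largest contrast, on chromosome 1, had 37.3 RPKM in the standard tip and 0.0716 RPKM in the five-foliate tip, against 0.718 and 11.5 RPKM in the buds of these lines. The lines differed past 2-fold in the tip for 48 of the 56 and in the bud for 34. Among all 3539 lower genes the tips were within 2-fold in 54.8% and the buds in 92.4%. The 56 were 1.58% of these 3539, where 9.64% of all 39343 genes were higher in the five-foliate bud. With both lines centred 99 genes were in this group.

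In 39 genes the bud was higher in the standard line and lower in the five-foliate line, with median log2 ratios of 1.08 and -1.19. Their median levels were 4.72 RPKM in the standard tip and 23.4 RPKM in the five-foliate tip, against 13.4 and 9.49 RPKM in the buds of these lines. All 39 differed past 2-fold between the tips and 0 between the buds. Among all 8144 higher genes the tips were within 2-fold in 54.4% and the buds in 99.1%. The 39 were 0.479% of these 8144, where 7.73% of all 39343 genes were lower in the five-foliate bud. With both lines centred 2 genes were left in this group.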

How the results depend on the processing

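The ratio of bud to tip as deposited gave 8144 higher and 3539 lower genes, 11683 in all, a median of 0.47 and 4895 genes past 2-fold in the same direction in both lines. Centred ratios gave 3586 higher, 5747 lower and a median of 0. Upper-quartile scaling gave 4910 higher, with a median of 0.15. A pseudocount of 5 gave 2706 higher and 1924 lower, 4630 in all, a median of 0.24 and 1893 in both lines. A pseudocount of 0.1 gave a median of 0.58 and 7799 in both lines. A 3-fold threshold gave 2963 higher and 1888 lower, 4851 in all, and 1775 in both lines. The median was 0.11 with no filter, 0.33 scaled without the most abundant genes and 0.33 with a total without the 3 most read genes, a setting chosen after the data were seen, as was a total from 1 model per gene. The cause was not tested beyond what each setting's construction fixes. The other 41 of these values were within 1.5 times the count or 0.1 of the median. For the 4 identified genes, 37 of the log2 ratios stayed inside their counting interval and 11 moved outside it, with no change of sign. The planned list alternatives could not be run without gene names. No paired analysis was possible because each group has 1 library and the numbers in the titles stand for the tissue. No replicate could be left out.

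Counts near the floor of 3 reads give wide intervals. The difference between plants could not be measured, so no count says how many genes would differ in a second sample of each tissue.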

Other observations

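At 20 RPKM or more in all 4 libraries stood 2419 genes. Of these, 396 (16.4%) lay past 2-fold above the standard tip in the standard bud and 301 (12.4%) below it. Over all 39343 genes these shares were 20.7% and 9.00%. The limit of 20 RPKM leaves out genes low in either tissue. The median log2 ratio of the 2419 genes was 0.40 in the standard line and -0.11 in the five-foliate line. Within 0.1 of 0 were 168 of them as deposited and 374 with centred ratios.

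The share past 2-fold was also counted by model length, with no test. Of 2387 genes with a recovered model length above 3000 bases, 13.4% were higher and 3.56% lower in the standard bud past 2-fold, against 22.7% and 10.8% of 7380 genes between 600 and 1000 bases. The median log2 ratio ran from 0.40 for lengths up to 300 bases to 0.50 above 3000 bases. The genes lower in the bud had a median length of 1141 bases, the higher genes 1228 bases and all genes 1284 bases. Length and level were not separated here.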
